A study of Mus musculus with 8 samples.

Results

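C1q macrophages were followed in mouse tongue epithelium in which Krt14-expressing cells carried inducible oncogenes. The 1656 macrophages were selected from 42550 cells by their transcripts: 1000 to 5500 genes and at most 30000 unique molecular identifiers (UMIs, 1 per captured transcript), at most 7% mitochondrial UMIs, under 0.5% of UMIs in Krt5, Krt14, Krt15, Krt13 and Krt6a, at least 5 UMIs summed over C1qa, C1qb and C1qc, at least 1 UMI of Lyz2 and none of Cd3e. They made up 3.89% of all cells and 6.57% of the 25199 cells inside the limits on genes, UMIs and mitochondrial share. All 8 libraries, each sampled on day 15 of induction, carried Krt14-CreERT and LSL-rtTA. Group N had no oncogene, E added tetON_E6-E7 (papillomavirus oncoproteins), Y added tetON_YAP1S127A (a YAP that resists inhibitory phosphorylation) and EY had both, with 2 libraries in each of the 4 groups. According to the study's methods, the mice were littermates that also carried a tetON_H2B-GFP reporter, received tamoxifen in the tongue and then doxycycline in the diet, and viable cells were sorted with no selection for leukocytes. The Krt14 promoter drives the recombinase in basal keratinocytes, so the macrophages carried the alleles without being the cells that the system switches on. The title of library N2 holds 2 numbers where the others hold 1, so it may stand for a pool.

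C1q is the recognition subunit of the classical complement pathway, and tissue macrophages are its main source. Macrophages that carry it are commonly long-lived phagocytes that clear dying cells, take up lipids and iron, and present antigen. They read their surroundings through receptors for growth factors, cytokines, immune complexes and oxygen-dependent signals, and change their secreted cytokines, proteases and metabolic enzymes accordingly.

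The libraries gave 73 macrophages in N1, 134 macrophages in N2, 140 macrophages in E1, 73 macrophages in E2, 686 macrophages in Y1, 272 macrophages in Y2, 133 macrophages in EY1 and 145 macrophages in EY2. Median depth ran from 4591 UMIs per macrophage in EY2 to 16970 in E2, and the summed macrophage UMIs ran from 624478 in N1 to 8112570 in Y1, so N1 and EY2 (698135 UMIs) gave the least precise levels. Median C1q UMIs per 10000 UMIs of a macrophage were 107 and 95.6 in N, 115 and 83.4 in E, 55.0 and 73.7 in Y, and 33.2 and 73.1 in EY. At the edge of the rule, 58 members had 5 or 6 C1q UMIs, while 48 Lyz2-positive cells outside it had 3 or 4, 292 had 1 or 2 and 2586 had none. Among cells with Cd3e, which should lack C1q, 34 of 3740 (0.909%) reached 5 C1q UMIs, with at most 1.42% in any library (Y1). Any pair of libraries shared between 2 and 19 cell barcodes. The doublet caller Scrublet marked 1 macrophage, but it marked under 0.5% of cells in E1, E2 and EY1, where it cannot be taken to have worked.

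The selected cells carried macrophage genes that the rule did not use. Pooled over libraries and scaled to a common library total (CPM), Ms4a7 stood at 573 CPM in C1q macrophages, 101 in 204 Ly6c2 monocytes, 29.8 in 1108 Saa3 cells, 0.876 in 143 Langerhans cells and 2.15 in 3706 T cells. Adgre1, which encodes the F4/80 antigen, followed with 158, 88.0, 47.6, 39.0 and 1.17 CPM in the same order. Mrc1, the mannose receptor, stood at 168 CPM in C1q macrophages and 47.3 in monocytes, Mmp12, the macrophage elastase, at 786 and 247, and Trem2, a lipid-sensing receptor, at 175 and 70.3. Apoe, a lipid carrier made by macrophages, stood at 6223 CPM in C1q macrophages, 2187 in monocytes and 338 in keratinocytes. Ly6c2 was lower in C1q macrophages (358 CPM) than in the monocytes selected by it (1578). The chemokine Ccl24 did not separate the classes, at 465 CPM in C1q macrophages and 409 in Saa3 cells, and Folr2, found on many tissue-resident macrophages, was near the floor at 6.99 CPM. Because all classes were drawn from the same cells by their transcripts, these levels are a description and carry no test.

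**Figure D1:**
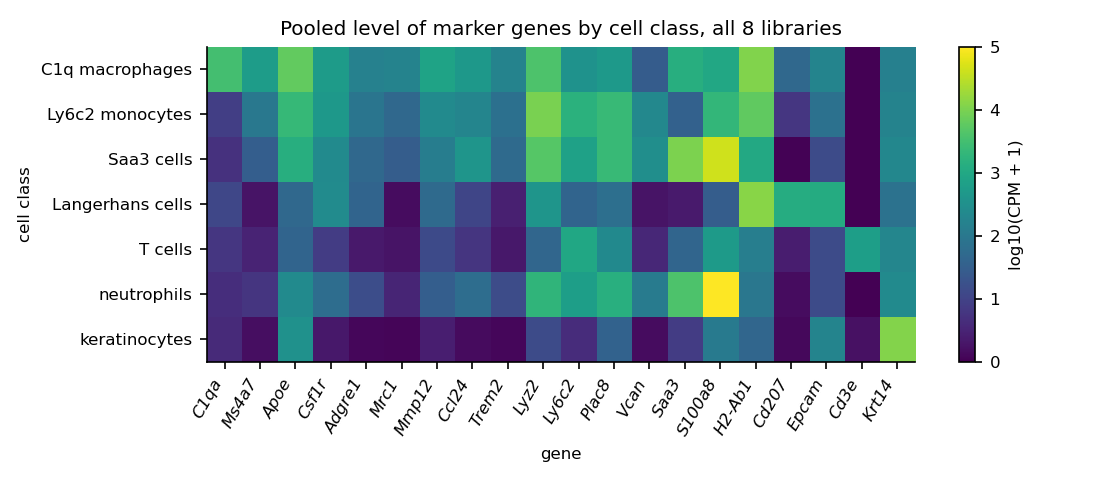
Pooled levels of marker genes in C1q macrophages and in 6 other cell classes of the tongue epithelium, in CPM on a log10 scale. Ms4a7, Mrc1, Adgre1 and Trem2 stand highest in C1q macrophages, Ly6c2 in Ly6c2 monocytes, S100a8 in neutrophils and Cd207 in Langerhans cells.

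RNA of other cells was present and moved with the groups. The summed level of 7 neutrophil markers (S100a8, S100a9, Csf3r, Ly6g, Retnlg, Cxcr2 and Hdc) in the macrophages was 49.4 and 129.7 in N, 57.9 and 148 in E, 1168 and 216 in Y, and 7539 and 7732 in EY, in CPM. With cells thinned to 3000 UMIs, the percentage of macrophages with an S100a8 UMI was 4.11 and 15.9 in N, 6.02 and 7.04 in E, 27.8 and 8.96 in Y, and 78.8 and 75.2 in EY. Unthinned it was 11.0 and 30.6 in N, 12.1 and 20.5 in E, 66.0 and 14.7 in Y, and 100 and 87.6 in EY. Among T cells thinned alike, which should lack it, the percentage was 0.893 and 8.71 in N, 2.83 and 3.72 in E, 30.5 and 3.56 in Y, and 88.1 and 64.8 in EY. The shares in T cells were under those in macrophages in N, E, Y2 and EY2 and over them in Y1 and EY1. The 6 monocyte markers summed to 499 and 819.9 in N, 1019 and 2215 in E, 3436 and 866 in Y, and 8554 and 5831 in EY, in CPM. The 5 keratins of the rule summed to 500.1 and 204 in N, 541 and 202 in E, 432 and 199 in Y, and 290.3 and 1306 in EY, also in CPM, and stood highest in EY2, where 98 of 145 macrophages had over 0.1% keratin UMIs. No mast cell marker (Cpa3, Mcpt4, Mcpt8, Ms4a2) had a UMI in any macrophage, T cell markers summed to 2.26 to 25.5 CPM, and 88 macrophages had no UMI of Ptprc. The part of other cells' RNA in the gene changes was not tested. Some values are given with cells that carried much of it left out. Leaving out cells does not remove free RNA from the cells that remain.

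C1q macrophages were not shown to change in frequency with either transgene. With 70 labellings and adjustment over 4 tests, no share could reach an adjusted p under 0.05. They made up 11.8% (9.28 to 14.7) in N1, 9.71% (8.18 to 11.4) in N2, 19.8% (16.8 to 23.1) in E1, 7.80% (6.15 to 9.72) in E2, 17.4% (16.3 to 18.7) in Y1, 23.5% (21.0 to 26.1) in Y2, 8.49% (7.15 to 9.99) in EY1 and 14.3% (11.9 to 17.0) in EY2 of Ptprc-positive cells, with exact Clopper-Pearson 95% intervals that cover counting error only. The mean was 15.9% ± 6.26 (SD, n = 4) with the YAP transgene and 12.3% ± 5.30 without it, a difference of 3.64 points (exact permutation test, two-sided p = 0.371, adjusted over 4 tests 0.495). The 4 libraries with E6-E7 differed from the 4 without by -3.00 points (exact permutation p = 0.514, adjusted 0.514).

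Among the C1q macrophages, Ly6c2 monocytes and Saa3 cells combined, C1q macrophages were the largest class in N, E and Y and a minority in EY. Their shares were 82.0% of 89 cells in N1, 70.9% of 189 cells in N2, 73.7% of 190 cells in E1, 65.2% of 112 cells in E2, 72.3% of 949 cells in Y1, 88.0% of 309 cells in Y2, 18.5% of 719 cells in EY1 and 35.3% of 411 cells in EY2. Saa3 cells, which lacked the C1q threshold and carried the acute-phase gene Saa3, numbered 576 and 263 in EY. Both EY libraries lay below all 6 others. No test was run of EY alone, since 2 libraries against 2 cannot pass 0.05 in an exact test. The E6-E7 difference was -30.1 points (exact permutation p = 0.0857, adjusted 0.343) and the YAP difference -19.4 points (exact permutation p = 0.371, adjusted 0.495). Shares of sorted cells also move with the number of other cells, so a share does not give a number per tissue.

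**Figure D2:**
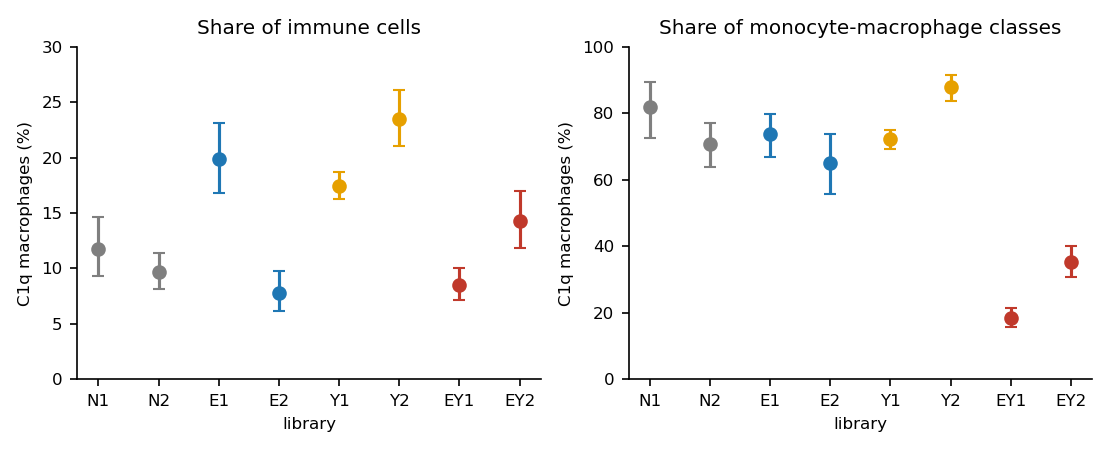
C1q macrophages as a percent of Ptprc-positive cells and of the 3 monocyte-macrophage classes, 1 point per library with exact 95% intervals. The groups overlap for the share of immune cells, while the 2 EY libraries lie lowest for the share of monocyte-macrophage classes, at 18.5% and 35.3%.

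The transcripts of C1q macrophages changed with YAP. Summing UMIs per library and fitting edgeR's quasi-likelihood model with a YAP and an E6-E7 term, 406 of 8804 genes tested differed between the 4 libraries with the YAP transgene and the 4 without, at an adjusted p under 0.05 (4.61% of genes), 269 higher (3.06%) and 137 lower (1.56%). The libraries of the 2 arms did not overlap for 10.9% of all genes. With plain library totals in place of TMM scaling there were 324 calls and the share of higher calls fell from 66.3% to 55.9%, as the median of all genes moved from -0.01 to -0.11 on the log2 scale. Library Y2 was the mildest of the 4, with a median absolute log2 difference of 0.787 from the libraries without YAP over the called genes, against 1.20 in Y1, 1.49 in EY1 and 1.34 in EY2, and it was the nearest to them in 286 of the 406. Leaving out Y2 raised the count to 766, and leaving out any 1 of the others moved it to 105 (EY1), 121 (E1), 127 (Y1), 136 (E2), 231 (EY2), 269 (N1) or 336 (N2). Other-lineage UMIs are those of Cd3d, Cd3g, Trbc2, Nkg7, Cd79a, Ms4a1, Csf3r, Ly6g, Cd207, Cpa3, Col1a1 and Pecam1. Leaving out the 402 macrophages with 2 or more of them gave 235 calls, of which 213 were among the 406. No gene of the 406 changed sign under any of the alternative settings run.

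**Figure D3:**
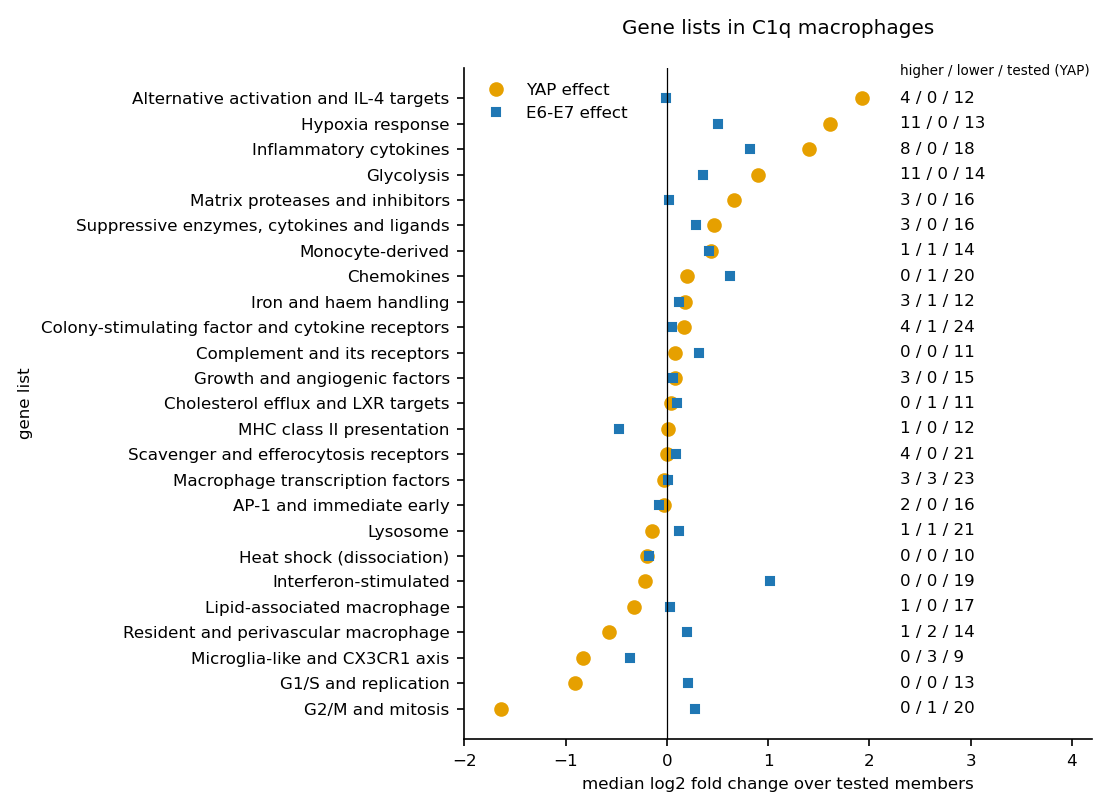
Median log2 difference with YAP (4 libraries with the transgene against 4 without) over the tested members of each gene list in C1q macrophages, with the number of members called higher and lower. The hypoxia and glycolysis lists hold the most calls, 11 each, all higher, and the median of all genes lies at -0.01.

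Genes of the hypoxia response rose together. When oxygen is short, the factor HIF-1 escapes degradation and binds the letters ACGTG or GCGTG near genes for glucose uptake, lipid storage, mitophagy and vessel growth. Of 13 tested genes of the hypoxia list 11 rose with YAP and none fell, against 3.06% of all genes higher, with a median of 1.61 against -0.01 over all genes, and the 2 arms did not overlap for 12 of the 13. The called genes were Hilpda, Vegfa, Bnip3, Ndrg1, Egln3, Ero1l, Ankrd37, Slc2a1, Ddit4, Mxi1 and Higd1a. To show where those letters lie, the 250 bases before the first listed RefSeq start of 3 called members are printed 5′ to 3′ on the gene's strand from build GRCm38 (RefSeq GRCm38.p6), with every ACGTG or GCGTG, read on either strand, in capitals (CACGT or CACGC where the match is on the other strand): Bnip3 (mitophagy receptor, chr7:138909507-138909756, minus strand), Slc2a1 (glucose transporter GLUT1, chr4:119108495-119108744, plus strand) and Egln3 (prolyl hydroxylase that marks HIF for degradation, chr12:54203875-54204124, minus strand).
Bnip3: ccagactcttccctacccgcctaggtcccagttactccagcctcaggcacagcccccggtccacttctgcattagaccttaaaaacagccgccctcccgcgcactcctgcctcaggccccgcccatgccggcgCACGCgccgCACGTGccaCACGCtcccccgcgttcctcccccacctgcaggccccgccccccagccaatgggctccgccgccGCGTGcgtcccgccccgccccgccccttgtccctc
Slc2a1: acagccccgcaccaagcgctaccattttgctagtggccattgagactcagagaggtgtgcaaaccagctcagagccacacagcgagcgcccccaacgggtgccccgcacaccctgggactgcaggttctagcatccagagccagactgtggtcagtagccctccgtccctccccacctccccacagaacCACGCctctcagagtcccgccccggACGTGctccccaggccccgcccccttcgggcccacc
Egln3: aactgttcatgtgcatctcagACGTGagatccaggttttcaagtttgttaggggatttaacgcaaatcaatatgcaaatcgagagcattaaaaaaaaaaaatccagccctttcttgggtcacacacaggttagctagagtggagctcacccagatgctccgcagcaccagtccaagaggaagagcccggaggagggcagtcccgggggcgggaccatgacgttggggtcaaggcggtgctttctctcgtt

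Bnip3 held 5 matches, some of them overlapping, the nearest 35 bases before the start. Slc2a1 held 2, at 61 and 36 bases, and Egln3 held 1, at 229 bases. Across promoters, 6 of 9 called hypoxia genes with a listed promoter held a match, as did 58.6% of 7057 tested genes and 38.6% of all 27025 promoters, so the letters are common in this window. The windows of Hilpda and Vegfa, both called, held none.

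Hilpda, which blocks breakdown of lipid droplets under low oxygen, was at 73.3 and 88.3 CPM in N, 72.4 and 180.0 in E, 696 and 283 in Y, and 697 and 669 in EY. Its log2 difference with YAP was 2.51 ± 0.33 (adjusted p = 0.00656), where ± gives the standard error here and for later genes. All 4 libraries with YAP lay above the 4 without. Bnip3 was at 20.7 and 41.4 CPM in N, 33.5 and 68.5 in E, 195 and 97.0 in Y, and 237 and 217 in EY, a log2 difference of 2.14 ± 0.30 (adjusted p = 0.00710). Egln3 was scarce, at 1.59 and 1.64 CPM in N, 0 and 3.77 in E, 19.2 and 12.6 in Y, and 34.3 and 41.8 in EY, a log2 difference of 3.80 ± 0.47 (adjusted p = 0.00512). Vegfa, the vascular growth factor, was at 123 and 89.4 CPM in N, 113 and 125 in E, 351 and 216 in Y, and 271 and 265 in EY, a log2 difference of 1.30 ± 0.19 (adjusted p = 0.00775). In each of these 4 genes Y2 was the lowest library with YAP, and still above every library without it. Ddit4, an inhibitor of mTORC1 signalling, was at 9.56 and 62.7 CPM in N, 17.2 and 33.1 in E, 106 and 78.8 in Y, and 136 and 219.8 in EY, a log2 difference of 1.93 ± 0.47 (adjusted p = 0.0464). Higd1a, a mitochondrial protein, was at 116 to 163 CPM without the YAP transgene and 184 to 378 with it, a log2 difference of 1.05 ± 0.18 (adjusted p = 0.0147). The calls of Egln3, Hilpda, Bnip3 and Vegfa held without any 1 library. Ddit4 missed the threshold without N1, E1, E2, Y1, EY1 or EY2 (adjusted p 0.0787 to 0.144) and Higd1a without E1, E2, Y1 or EY1 (adjusted p 0.0533 to 0.0577). Ddit4 also missed it at a mitochondrial limit of 5%, with cells carrying other-lineage UMIs left out and without TMM. The number of hypoxia genes called was 10, 10, 7, 7, 6, 12, 6 and 8, in the order N1 to EY2, with 1 library left out.

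Glycolysis genes rose as well, by smaller amounts. Of 14 tested genes 11 rose and none fell, against 3.06% of all genes higher, with a median of 0.90. The arms did not overlap for 8, against 10.9% of all genes. Slc2a1, which is on both this and the hypoxia list, was at 57.3 and 42.0 CPM in N, 50.7 and 73.0 in E, 164 and 91.1 in Y, and 255 and 176 in EY, a log2 difference of 1.61 ± 0.24 (adjusted p = 0.00877). Hk2, which traps glucose in the cell as its phosphate, was at 84.4 and 95.9 CPM in N, 74.2 and 73.8 in E, 224 and 128 in Y, and 364 and 189 in EY, a log2 difference of 1.43 ± 0.29 (adjusted p = 0.0235). Pfkp, a subunit of phosphofructokinase, was at 52.3 to 92.3 CPM without the YAP transgene and 103 to 237 with it, a log2 difference of 1.13 ± 0.28 (adjusted p = 0.0487). The later steps of the pathway moved too. Pgk1 was at 202 to 335 CPM without the YAP transgene and 331 to 655 with it, a log2 difference of 0.99 ± 0.21 (adjusted p = 0.0276). Gapdh, the most abundant member of the list, was at 1061 and 1150.3 CPM in N, 1315 and 1455 in E, 2431 and 1514 in Y, and 2577 and 2772 in EY, a log2 difference of 0.89 ± 0.17 (adjusted p = 0.0176). Pkm, pyruvate kinase, was at 581 to 739 CPM without the YAP transgene and 592 to 1483 with it and missed the threshold with a log2 difference of 0.60 ± 0.19 (adjusted p = 0.106). It was called in EY against N (log2 difference 1.14 ± 0.24, adjusted p = 0.0311), but not without N1, N2, E1, E2, EY1 or EY2 (adjusted p 0.0524 to 0.138) or with the other-lineage cells left out. The call of Slc2a1 held without any 1 library. Hk2 missed the threshold without E1, E2 or Y1 (adjusted p 0.0842 to 0.0925), Pfkp without N1, N2, E1, E2, Y1 or EY1 (adjusted p 0.0633 to 0.180) and Pgk1 without N1, N2, E1, E2, Y1, EY1 or EY2 (adjusted p 0.0501 to 0.0994). Gapdh missed the threshold without E1, E2, Y1 or EY1 (adjusted p 0.0538 to 0.0718). Pfkp also missed it at 10 C1q UMIs, at 10 C1q UMIs per 10000, without the cells rich in S100a8 and S100a9, with cells carrying other-lineage UMIs left out and without TMM, and Pgk1 with cells carrying other-lineage UMIs left out. The count of glycolysis calls rested on single libraries, at 5, 8, 1, 2, 1, 13, 2 and 6, in the order N1 to EY2, with 1 library left out, and was 5 with the other-lineage cells left out. Matches of the same letters were found for 9 of 11 called glycolysis genes, and for 58.6% of 7057 tested genes, so they are common here too.

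**Figure D4:**
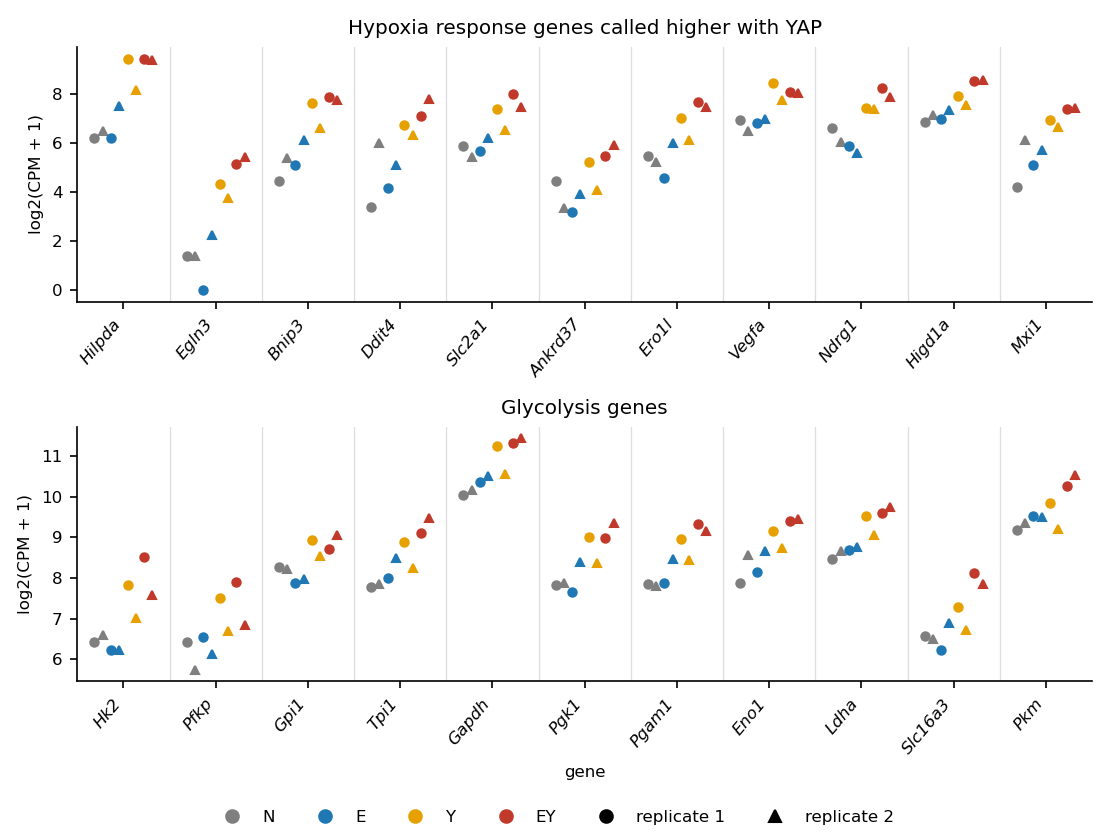
Levels of hypoxia and glycolysis genes in C1q macrophages in each of the 8 libraries, in CPM on a log2 scale after a small constant was added. For Hilpda, Bnip3, Egln3, Vegfa and Slc2a1 the 4 libraries with the YAP transgene lie above the 4 without, with Y2 nearest to them in several genes.

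Cytokines were the next group. Interleukin-1 and prostaglandins drive local inflammation, IL-23 sustains IL-17-producing T cells, and G-CSF (Csf3) calls out neutrophils. Of 18 tested genes of the inflammatory cytokine list 8 rose and none fell (median 1.40), against 3.06% of all genes higher. Il1b was at 2219 and 2833 CPM in N, 2455 and 1846 in E, 4567 and 3933 in Y, and 7313 and 5336 in EY, a log2 difference of 1.15 ± 0.21 (adjusted p = 0.0176). Il23a, the IL-23 p19 subunit, was at 7.96 and 2.18 CPM in N, 1.81 and 1.51 in E, 22.3 and 17.6 in Y, and 53.3 and 20.1 in EY, a log2 difference of 3.37 ± 0.52 (adjusted p = 0.0102). Both were above the range of the libraries without YAP in all 4 libraries with it. Csf3 had 22 and 14 UMIs in Y, 136 and 13 in EY, 2 and 0 in E and none in N (adjusted p = 0.00710), too few without YAP for a fold. Ptgs2, the inducible cyclooxygenase, was at 137 and 107 CPM in N, 118 and 138 in E, 285 and 225 in Y, and 743 and 367 in EY, a log2 difference of 1.60 ± 0.28 (adjusted p = 0.0147). Ptges, which makes prostaglandin E2 from its product, was at 3.27 to 13.6 CPM without the YAP transgene and 6.59 to 41.7 with it, overlapping, a log2 difference of 1.68 ± 0.40 (adjusted p = 0.0430). Osm, oncostatin M, was at 66.9 and 113 CPM in N, 131 and 100.2 in E, 379 and 274 in Y, and 411 and 201 in EY, a log2 difference of 1.62 ± 0.26 (adjusted p = 0.0111). Il1rn, the interleukin-1 receptor antagonist, and Lcn2 were also called.

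Lcn2 needs the neutrophil values beside it. It rose from 0 to 7.53 CPM to 41.6 and 13.2 in Y and 438 and 624 in EY, and stood at 8642 CPM in the pooled neutrophils and 87.2 in the pooled macrophages. Il1b stood at 4214 CPM in macrophages, 7834 in neutrophils and 115 in T cells. Across libraries T cells held Il1b at 4.95 and 70.8 CPM in N and 6.97 and 17.4 in E. They held 170 and 45.9 CPM in Y and 349 and 10.5 in EY. The part of neutrophil or free RNA in the rise of Il1b was not tested. Saa3, the other abundant member, was at 142 and 719.6 CPM in N, 262 and 989 in E, 503 and 574 in Y, and 4042 and 13103 in EY, with no call for the YAP term (log2 difference 2.04 ± 0.89, adjusted p = 0.236). EY against N called 11 genes of the list, all higher, against 3.21% of all genes, Saa3 among them (log2 difference 4.29 ± 0.88, adjusted p = 0.0295). Saa3 missed the threshold without N1, N2, EY1 or EY2 (adjusted p 0.0711 to 0.108). The calls of Il23a and Lcn2 held without any 1 library. Il1b missed the threshold without E1 or E2 (adjusted p 0.0542 to 0.0710), Csf3 without EY1 (adjusted p 0.0520) and Ptgs2 without E1 or E2 (adjusted p 0.0634 to 0.0634). Ptges missed the threshold without N2, E1, E2, Y1, EY1 or EY2 (adjusted p 0.0558 to 0.196) and Osm without EY1 (adjusted p 0.0506). Ptges also missed it without the cells over 0.1% keratin and without TMM. The cytokine count was 9, 8, 4, 5, 7, 11, 4 and 8, in the order N1 to EY2, with 1 library left out. With the 27 macrophages holding 100 or more S100a8 and S100a9 UMIs left out, 8 cytokine genes were still called, while calls on the neutrophil list went from 9 to 6. That filter does not remove free RNA from the other macrophages, so the part of free RNA was not tested.

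Neutrophil genes were higher with YAP in the macrophage libraries. Of 13 tested, 12 differences were positive and 9 were called (median 3.28), against 4.61% of all genes called. S100a9 was at 3.19 and 19.6 CPM in N, 2.72 and 18.8 in E, 367 and 60.8 in Y, and 1847 and 2660.3 in EY, a log2 difference of 5.87 ± 0.97 (adjusted p = 0.0118). S100a8 was at 22.3 and 70.3 CPM in N, 23.5 and 86.6 in E, 645 and 113 in Y, and 5286 and 4702 in EY, a log2 difference of 4.74 ± 0.93 (adjusted p = 0.0226). Retnlg was at 0 and 1.64 CPM in N, 0.905 and 9.04 in E, 79.1 and 6.62 in Y, and 269 and 249 in EY, a log2 difference of 5.51 ± 0.86 (adjusted p = 0.0102). Ngp, a neutrophil granule gene, had no UMI in the 4 libraries without YAP and 25 and 7 UMIs in Y and 96 and 135 in EY (adjusted p = 0.0136). Hdc, histidine decarboxylase, was at 1.59 to 8.15 CPM without the YAP transgene and 10.1 to 73.4 with it, a log2 difference of 2.83 ± 0.52 (adjusted p = 0.0170). T cells of the same libraries gave S100a8 at 50.8 and 82.1 in N, 5.58 and 12.3 in E, 546 and 15.5 in Y, and 3387 and 1981 in EY, in CPM. The call of Retnlg held without any 1 library. S100a8 missed the threshold without N1, E1, E2, Y1 or EY1 (adjusted p 0.0530 to 0.0934), S100a9 without E2 (adjusted p 0.0542) and Ngp without E2 (adjusted p 0.0529). Hdc missed the threshold without E1, E2, Y1 or EY1 (adjusted p 0.0563 to 0.0706). S100a8 also missed it without the cells rich in S100a8 and S100a9 and with cells carrying other-lineage UMIs left out, and S100a9 without the cells rich in S100a8 and S100a9. Those rich cells were left out by these genes themselves, so the loss there is no separate test.

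The genes of alternative activation, the program that interleukin-4 and interleukin-13 set in macrophages, gave 4 calls of 12 tested, all higher (median 1.93). Of all genes 3.06% were called higher. Mrc1 was at 66.9 and 113 CPM in N, 90.5 and 105 in E, 168 and 209 in Y, and 251 and 212 in EY, a log2 difference of 1.13 ± 0.18 (adjusted p = 0.0111). Il4ra, the interleukin-4 receptor chain, was at 57.3 and 55.1 CPM in N, 62.5 and 46.7 in E, 105 and 81.3 in Y, and 128 and 254 in EY, a log2 difference of 1.26 ± 0.28 (adjusted p = 0.0346). Socs2, a feedback inhibitor of cytokine receptors, was at 19.1 and 3.27 CPM in N, 9.05 and 8.28 in E, 86.0 and 36.5 in Y, and 47.5 and 55.7 in EY, a log2 difference of 2.74 ± 0.44 (adjusted p = 0.0109). Arg1, arginase, which depletes arginine, was uneven. It was at 4.78 and 46.9 CPM in N, 8.15 and 30.9 in E, 375 and 37.5 in Y, and 294 and 232 in EY, a log2 difference of 3.23 ± 0.73 (adjusted p = 0.0378), and Y2 lay below N2. Among the most abundant members, Chil3 was at 68.5 and 354 CPM in N, 15.4 and 327 in E, 2482 and 277 in Y, and 6683 and 4324 in EY without a call (log2 difference 3.83 ± 1.03, adjusted p = 0.0676). Ccl17 was at 3.82 to 521 CPM without the YAP transgene and 65.0 to 1064 with it, a log2 difference of 0.88 ± 1.06 (adjusted p = 0.703). The call of Socs2 held without any 1 library. Mrc1 missed the threshold without E1 (adjusted p 0.0502), Il4ra without N1, E1, E2, Y1 or EY1 (adjusted p 0.0518 to 0.114) and Arg1 without N1, E1, E2, Y1, EY1 or EY2 (adjusted p 0.0748 to 0.185). Il4ra also missed it without the cells over 0.1% keratin and with cells carrying other-lineage UMIs left out, and Arg1 with no upper limits. The count of the list was 3, 5, 1, 2, 2, 8, 2 and 3, in the order N1 to EY2, with 1 library left out.

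Suppressive genes overlapped with these. Of 16 tested, Arg1, Ptgs2 and Cd274 rose and none fell, against 3.06% of all genes higher. Cd274, which encodes the checkpoint ligand PD-L1, was at 84.4 and 44.2 CPM in N, 89.6 and 123 in E, 189 and 80.3 in Y, and 328 and 252 in EY, a log2 difference of 1.30 ± 0.29 (adjusted p = 0.0379), and Y2 lay within the range of the libraries without YAP. Tgfb1 was at 250.1 to 294 CPM without the YAP transgene and 349.8 to 449.8 with it and missed the threshold with a log2 difference of 0.55 ± 0.14 (adjusted p = 0.0521). Of 15 tested growth and angiogenic factors Vegfa, Osm and Hbegf rose, against the same 3.06%. Hbegf, a ligand of the EGF receptor, was at 7.96 and 3.27 CPM in N, 15.4 and 1.51 in E, 36.9 and 11.0 in Y, and 41.2 and 48.0 in EY, a log2 difference of 2.44 ± 0.57 (adjusted p = 0.0412). Cd274 missed the threshold without N2, E1, E2, Y1, EY1 or EY2 (adjusted p 0.0698 to 0.128) and Hbegf without N1, N2, E1, E2, Y1, EY1 or EY2 (adjusted p 0.0519 to 0.109). Cd274 and Hbegf also missed it with cells carrying other-lineage UMIs left out and without TMM. The suppressive count was 2, 2, 0, 0, 1, 5, 1 and 2, in the order N1 to EY2, with 1 library left out, and that of the growth factors 2, 2, 2, 2, 2, 6, 1 and 3, in the order N1 to EY2, with 1 library left out.

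Of 16 tested matrix proteases and inhibitors 3 collagen and elastin degrading enzymes rose, against 3.06% of all genes higher. Mmp12 was at 521 and 109 CPM in N, 195 and 263 in E, 955 and 1363 in Y, and 592 and 557 in EY, a log2 difference of 1.62 ± 0.39 (adjusted p = 0.0465). Mmp13, an interstitial collagenase, was at 35.0 and 63.2 CPM in N, 54.3 and 27.9 in E, 167 and 246 in Y, and 76.5 and 286 in EY, a log2 difference of 2.06 ± 0.40 (adjusted p = 0.0205). Mmp8, the neutrophil collagenase, was at 4.78 and 15.8 CPM in N, 3.62 and 12.8 in E, 101 and 18.0 in Y, and 155 and 156 in EY, a log2 difference of 3.23 ± 0.63 (adjusted p = 0.0209), beside a pooled level of 1312 CPM in neutrophils. Mmp12 missed the threshold without E1, E2, Y1, EY1 or EY2 (adjusted p 0.0864 to 0.130), Mmp13 without N1, E1 or E2 (adjusted p 0.0514 to 0.0678) and Mmp8 without E1, E2, Y1, EY1 or EY2 (adjusted p 0.0501 to 0.0842). Mmp12 also missed it without the cells over 0.1% keratin, with cells carrying other-lineage UMIs left out, with no upper limits and without TMM. The count was 2, 4, 0, 0, 1, 4, 1 and 1, in the order N1 to EY2, with 1 library left out.

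Receptors for immune complexes, fungal sugars and growth factors were also among the higher genes. Of 21 scavenger and phagocytic receptors 4 rose and none fell, against 3.06% of all genes higher, around a list median of 0.01. Fcgr2b, the inhibitory receptor for IgG, was at 197 and 444 CPM in N, 302 and 398 in E, 1245 and 896 in Y, and 1536 and 856 in EY, a log2 difference of 1.75 ± 0.28 (adjusted p = 0.0106). Fcgr3, an activating one, was at 244 to 423 CPM without the YAP transgene and 512 to 1025 with it, a log2 difference of 1.32 ± 0.25 (adjusted p = 0.0178). Clec4n, a receptor for fungal mannans, was at 167 and 279 CPM in N, 245 and 181 in E, 541 and 451 in Y, and 666 and 525 in EY, a log2 difference of 1.31 ± 0.20 (adjusted p = 0.00931). Msr1, the scavenger receptor A, was at 95.6 to 240.2 CPM without the YAP transgene and 193 to 519 with it, overlapping, a log2 difference of 0.89 ± 0.22 (adjusted p = 0.0462). The calls of Fcgr2b and Clec4n held without any 1 library. Fcgr3 missed the threshold without E1, E2, Y1 or EY1 (adjusted p 0.0608 to 0.0702) and Msr1 without N1, E1, E2, Y1 or EY1 (adjusted p 0.0979 to 0.166). Msr1 also missed it at a mitochondrial limit of 5%, without the cells rich in S100a8 and S100a9, with cells carrying other-lineage UMIs left out and without TMM. The count was 3, 6, 2, 2, 2, 5, 2 and 4, in the order N1 to EY2, with 1 library left out.

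Among 24 receptors of colony-stimulating factors and cytokines 4 rose and 1 fell, against 3.06% of all genes higher and 1.56% lower. Csf2rb, the shared chain that signals for GM-CSF, was at 153 and 172 CPM in N, 196 and 162 in E, 519 and 465 in Y, and 498 and 438 in EY, a log2 difference of 1.49 ± 0.14 (adjusted p = 0.00266), with no overlap between the arms. Its neighbour Csf2rb2, which is nearly identical in sequence and whose reads the counting may not separate from it, was also called. Il1r2, a decoy receptor for interleukin-1, was at 145 and 225 CPM in N, 147 and 139 in E, 501 and 653 in Y, and 759.6 and 963 in EY, a log2 difference of 2.11 ± 0.24 (adjusted p = 0.00424). Csf1r, the receptor for M-CSF on which macrophages depend, was at 468 and 638 CPM in N, 416 and 447 in E, 606 and 572 in Y, and 472 and 549 in EY and did not pass (log2 difference 0.16 ± 0.14, adjusted p = 0.582). The calls of Csf2rb and Il1r2 held without any 1 library. The count of higher calls on this list was 2, 5, 2, 3, 2, 6, 2 and 4, in the order N1 to EY2, with 1 library left out.

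Among called genes linked to the CX3CR1 axis or to resident macrophages, most fell and Mrc1 rose. Cx3cr1, the fractalkine receptor, was at 81.2 and 113 CPM in N, 85.1 and 39.2 in E, 5.37 and 17.0 in Y, and 34.8 and 3.10 in EY, a log2 difference of -2.40 ± 0.57 (adjusted p = 0.0435). Gpr34, a lysophosphatidylserine receptor, was at 38.2 and 50.7 CPM in N, 18.1 and 24.9 in E, 4.88 and 21.7 in Y, and 1.58 and 1.55 in EY, a log2 difference of -2.29 ± 0.50 (adjusted p = 0.0333). They were 2 of the 3 calls among 9 tested genes of the list named for microglia and the CX3CR1 axis, whose median was -0.83, and all 9 differences were negative. Of all genes 1.56% were called lower. On the resident macrophage list (14 tested, median -0.57), Selenop, a selenium carrier, was at 354 and 449 CPM in N, 279 and 357 in E, 134 and 188 in Y, and 67.0 and 183 in EY, a log2 difference of -1.36 ± 0.28 (adjusted p = 0.0255), while Mrc1 rose. Timd4, a phosphatidylserine receptor, had 15 and 18 UMIs in N, 9 and 1 in E, 0 and 2 in Y and none in EY (adjusted p = 0.0134). The summed level of the resident list, Mrc1 and Ccl24 included, was 1150 and 996 CPM in N and 1269 and 851 in E. It was 1444 and 1314 CPM in Y and 2273 and 1380 in EY, so the sum did not fall. Cx3cr1 missed the threshold without N1, N2, E1, E2, Y1 or EY2 (adjusted p 0.0522 to 0.126), Gpr34 without N1, N2, E1, E2, Y1, EY1 or EY2 (adjusted p 0.0515 to 0.107) and Selenop without N2, E1, E2 or Y1 (adjusted p 0.0577 to 0.0880). Timd4 missed the threshold without Y1 or EY1 (adjusted p 0.0506 to 0.0683). Cx3cr1 also missed it at a mitochondrial limit of 5%, without the cells rich in S100a8 and S100a9 and with cells carrying other-lineage UMIs left out, and Gpr34 and Selenop with cells carrying other-lineage UMIs left out. The number of lower calls on the CX3CR1 list was 2, 1, 2, 1, 1, 6, 2 and 2, in the order N1 to EY2, with 1 library left out.

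Of 4 further markers of these cells, Mrc1 and Mmp12 rose, Ms4a7 fell and Ccl24 was not called. Ms4a7, a macrophage membrane protein of the tetraspan family, was at 572 and 988 CPM in N, 1397 and 997 in E, 415 and 568 in Y, and 178 and 239.9 in EY, a log2 difference of -1.58 ± 0.38 (adjusted p = 0.0456). Ccl24, an eosinophil chemokine, was at 140.2 and 1.64 CPM in N, 21.7 and 32.4 in E, 614 and 253 in Y, and 1398 and 127 in EY, a log2 difference of 3.79 ± 1.05 (adjusted p = 0.0728), and its libraries differed by large factors inside every group. Ms4a7 missed the threshold without N2, E1, E2, Y1, EY1 or EY2 (adjusted p 0.0807 to 0.164). Ms4a7 also missed it without the cells over 0.1% keratin, with no upper limits and without TMM.

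Several enzymes and surface proteins fell further. Hpgds, which makes prostaglandin D2, was at 298 and 196 CPM in N, 164 and 199.6 in E, 22.3 and 87.9 in Y, and 8.97 and 23.2 in EY, a log2 difference of -2.78 ± 0.48 (adjusted p = 0.0138). Ramp1, part of the receptor for the neuropeptide CGRP, was at 167 and 126 CPM in N, 55.2 and 74.6 in E, 16.7 and 52.0 in Y, and 3.17 and 3.10 in EY, a log2 difference of -2.71 ± 0.45 (adjusted p = 0.0123). Cd72, an inhibitory lectin, was at 377 and 541 CPM in N, 714 and 647 in E, 104 and 309 in Y, and 39.1 and 63.5 in EY, a log2 difference of -2.38 ± 0.55 (adjusted p = 0.0413). For each of these Y2 was the highest library with YAP. Ckb, a creatine kinase, was at 49.4 to 155 CPM without the YAP transgene and 4.75 to 20.2 with it, a log2 difference of -2.97 ± 0.45 (adjusted p = 0.00909). Cadm1, an adhesion molecule, was at 66.5 to 127 CPM without the YAP transgene and 6.86 to 35.3 with it, a log2 difference of -2.28 ± 0.42 (adjusted p = 0.0178). Gdf3, a ligand of the TGF-β family, was at 15.9 to 39.8 CPM without the YAP transgene and 1.06 to 7.74 with it, a log2 difference of -3.06 ± 0.38 (adjusted p = 0.00512). Spns3, a putative transporter, was at 9.04 to 27.1 CPM without the YAP transgene and 1.55 to 5.99 with it, a log2 difference of -2.11 ± 0.33 (adjusted p = 0.0102). The calls of Hpgds, Ramp1, Ckb, Gdf3 and Spns3 held without any 1 library. Cd72 missed the threshold without N2, E1, E2, Y1, EY1 or EY2 (adjusted p 0.0579 to 0.136) and Cadm1 without E1, Y1, EY1 or EY2 (adjusted p 0.0506 to 0.0596). Hpgds and Cd72 also missed it with cells carrying other-lineage UMIs left out.

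Cd207 and Ighm, genes known from Langerhans and B cells, also fell. Cd207, langerin, which marks Langerhans cells, was at 385 and 169.5 CPM in N, 109 and 70.0 in E, 12.9 and 9.77 in Y, and 0 and 6.19 in EY, a log2 difference of -4.77 ± 0.47 (adjusted p = 0.00266). It stood at 1233 CPM in pooled Langerhans cells, which numbered 24, 47, 13, 12, 16, 21, 5 and 5 in N1 to EY2. Epcam, another Langerhans and epithelial gene, was at 376 and 166 CPM in N, 146 and 87.4 in E, 108 and 497 in Y, and 49.6 and 35.6 in EY, a log2 difference of -0.55 ± 0.51 (adjusted p = 0.608), so it did not follow Cd207. Ighm, the heavy chain of IgM, was at 92.4 and 69.8 CPM in N, 83.3 and 63.3 in E, 3.66 and 6.93 in Y, and 1.06 and 0 in EY, a log2 difference of -4.45 ± 0.37 (adjusted p = 0.00211). T cells of the same libraries carried Ighm at 28.5 and 80.9 in N, 48.8 and 70.1 in E, 19.3 and 44.7 in Y, and 39.9 and 18.9 in EY, in CPM. The part of free RNA or of joined cells in these levels was not tested. The calls of Cd207 and Ighm held without any 1 library.

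**Figure D5:**
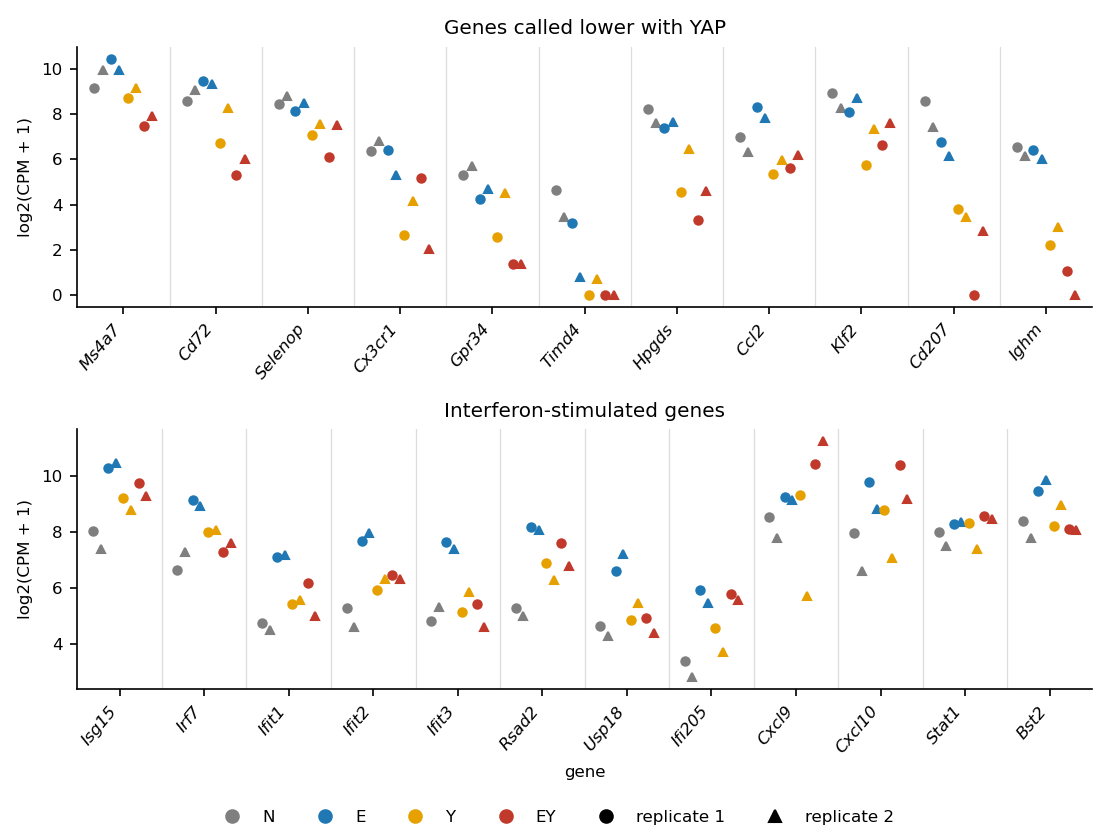
Levels of genes that fell with YAP and of interferon-stimulated genes in C1q macrophages in each of the 8 libraries. Values are in CPM on a log2 scale after a small constant was added. Cx3cr1, Hpgds and Ighm lie lower in the 4 libraries with the YAP transgene, while Isg15 and Rsad2 lie highest in the 2 E libraries.

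Among the largest rises under the naming rule, beside Egln3, Il23a and Socs2, were 5 others. Inhba, the subunit of activin A, was at 33.4 and 28.3 CPM in N, 22.6 and 36.1 in E, 566 and 53.9 in Y, and 1345 and 532 in EY, a log2 difference of 4.19 ± 0.72 (adjusted p = 0.0136), and Y2 was the lowest of the 4 libraries with YAP. Fcrla, an intracellular Fc receptor-like protein, was at 1.59 and 4.91 CPM in N, 2.72 and 7.53 in E, 84.2 and 27.1 in Y, and 41.2 and 24.8 in EY, a log2 difference of 3.28 ± 0.52 (adjusted p = 0.0106). Tarm1, an activating receptor of myeloid cells, was at 9.56 and 10.4 CPM in N, 6.34 and 29.4 in E, 91.1 and 38.4 in Y, and 160.5 and 132 in EY, a log2 difference of 2.86 ± 0.40 (adjusted p = 0.00710). Hs3st3b1, which sulfates heparan chains, was at 1.59 and 1.09 CPM in N, 1.81 and 5.27 in E, 27.8 and 19.9 in Y, and 20.1 and 12.4 in EY, a log2 difference of 3.06 ± 0.45 (adjusted p = 0.00809). Rnase2a, a ribonuclease of a family of near-identical genes whose reads the counting may split, was at 3.19 and 0 CPM in N, 0 and 3.01 in E, 12.9 and 42.2 in Y, and 45.4 and 9.29 in EY, a log2 difference of 4.49 ± 0.87 (adjusted p = 0.0209). The calls of Fcrla, Tarm1 and Hs3st3b1 held without any 1 library. Inhba missed the threshold without E1, E2 or Y1 (adjusted p 0.0552 to 0.0788) and Rnase2a without N2, E1, E2 or EY1 (adjusted p 0.0541 to 0.0860). Rnase2a also missed it with cells carrying other-lineage UMIs left out.

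Iron genes were split. Fth1, the ferritin heavy chain that stores iron, was at 21365 and 19344 CPM in N, 25270 and 18735 in E, 36392 and 25889 in Y, and 46298 and 43793 in EY, a log2 difference of 0.82 ± 0.18 (adjusted p = 0.0303). The light chain Ftl1 was at 7774 and 6535 CPM in N, 8699 and 6564 in E, 6459 and 5259 in Y, and 6204 and 7407 in EY, a log2 difference of -0.23 ± 0.15 (adjusted p = 0.453). Slc7a11, the cystine importer, was at 54.3 to 143 CPM without the YAP transgene and 191 to 468 with it, a log2 difference of 1.43 ± 0.34 (adjusted p = 0.0425). With Lcn2, Fth1 and Slc7a11 were the 3 rises among 12 tested, and Hpgds was the 1 fall, against 3.06% of all genes higher and 1.56% lower. On the lipid list Spp1, osteopontin, was the only call among 17 tested, at 87.6 and 216 CPM in N, 181 and 210.1 in E, 316 and 325 in Y, and 578 and 395 in EY, a log2 difference of 1.18 ± 0.25 (adjusted p = 0.0296). Of all genes 4.61% were called in either direction, so the lipid list lay near that share. Apoe was at 7686 and 10366 CPM in N, 6873 and 5804 in E, 5407 and 6306 in Y, and 4031 and 8513 in EY (log2 difference -0.32 ± 0.24, adjusted p = 0.508), Lgals3 at 3389 to 5316 CPM without the YAP transgene and 4429 to 5935 with it (log2 difference 0.36 ± 0.18, adjusted p = 0.309) and Trem2 at 161 to 287 CPM without the YAP transgene and 69.7 to 186 with it (log2 difference -0.76 ± 0.30, adjusted p = 0.187). Mylip, which degrades lipoprotein receptors, was the only call among 11 cholesterol efflux genes, at 49.8 to 62.7 CPM without the YAP transgene and 24.3 to 40.0 with it, a log2 difference of -0.92 ± 0.16 (adjusted p = 0.0134). Fth1 missed the threshold without E1, E2, Y1, EY1 or EY2 (adjusted p 0.0645 to 0.0863), Slc7a11 without N2, E1, E2, Y1, EY1 or EY2 (adjusted p 0.0596 to 0.120) and Spp1 without E1, E2, Y1 or EY1 (adjusted p 0.0788 to 0.108). Mylip missed the threshold without E2, Y1 or EY1 (adjusted p 0.0501 to 0.0596). Fth1 and Slc7a11 also missed it with cells carrying other-lineage UMIs left out, and Spp1 without the cells over 0.1% keratin and with cells carrying other-lineage UMIs left out.

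Of 23 macrophage transcription factors 3 rose and 3 fell, against 3.06% of all genes higher and 1.56% lower. Bhlhe40 was at 74.2 to 139 CPM without the YAP transgene and 147 to 254 with it, a log2 difference of 1.09 ± 0.26 (adjusted p = 0.0451). Tfec was at 4.53 to 20.3 CPM without the YAP transgene and 20.8 to 41.2 with it, a log2 difference of 1.73 ± 0.38 (adjusted p = 0.0324). Klf2, a factor linked to quiescence, was at 486 and 304 CPM in N, 273 and 416 in E, 52.3 and 162 in Y, and 98.2 and 195 in EY, a log2 difference of -1.58 ± 0.37 (adjusted p = 0.0421). Maf was at 58.9 to 97.1 CPM without the YAP transgene and 29.1 to 64.9 with it, a log2 difference of -0.89 ± 0.18 (adjusted p = 0.0256). Cebpb, an inflammatory factor of myeloid cells, was at 667 to 1089.6 CPM without the YAP transgene and 761 to 2244 with it (log2 difference 0.63 ± 0.29, adjusted p = 0.263). Among 16 immediate-early genes, which also respond to dissociation, Ier3 rose at 823 to 1000.4 CPM without the YAP transgene and 1155 to 2874 with it, a log2 difference of 1.29 ± 0.25 (adjusted p = 0.0195). Fosl2 rose too, at 70.6 to 107 CPM without the YAP transgene and 105 to 154 with it, a log2 difference of 0.66 ± 0.16 (adjusted p = 0.0491). Fos was at 2517 to 3222 CPM without the YAP transgene and 2132 to 3033 with it (log2 difference -0.18 ± 0.13, adjusted p = 0.475). None of 10 heat shock genes was called by edgeR, with 1 at an unadjusted p under 0.05 and none by DESeq2. Bhlhe40 missed the threshold without N1, N2, E1, Y1 or EY1 (adjusted p 0.0636 to 0.167), Tfec without N1, N2, E1, Y1, EY1 or EY2 (adjusted p 0.0591 to 0.110) and Klf2 without N1, N2, E1, E2, Y1 or EY1 (adjusted p 0.0606 to 0.138). Maf missed the threshold without N2, E1, E2, Y1 or EY2 (adjusted p 0.0718 to 0.0948), Ier3 without E1, E2, Y1 or EY1 (adjusted p 0.0631 to 0.0820) and Fosl2 without N1, N2, E1, E2, Y1, EY1 or EY2 (adjusted p 0.0591 to 0.166). Bhlhe40 also missed it at a mitochondrial limit of 5% and without TMM, Tfec with cells carrying other-lineage UMIs left out, and Klf2 at a mitochondrial limit of 5% and with cells carrying other-lineage UMIs left out. Maf also missed it without the cells over 0.1% keratin, and Fosl2 at 10 C1q UMIs, without the cells rich in S100a8 and S100a9, with cells carrying other-lineage UMIs left out, with no upper limits and without TMM.

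Calls among monocyte, antigen presentation and complement genes are set beside 3.06% of all genes called higher and 1.56% lower. On the monocyte-derived list (14 tested), F10, coagulation factor X, rose at 69.7 to 204 CPM without the YAP transgene and 270.3 to 808 with it, a log2 difference of 2.06 ± 0.39 (adjusted p = 0.0180). Itga4, an integrin chain for entry into tissue, fell at 61.0 to 105 CPM without the YAP transgene and 37.5 to 66.8 with it, a log2 difference of -0.62 ± 0.14 (adjusted p = 0.0414). S100a6 was at 1746 to 2663 CPM without the YAP transgene and 2496 to 4095 with it (log2 difference 0.48 ± 0.18, adjusted p = 0.176). Among 12 MHC class II genes Cd80, a costimulatory ligand, rose at 27.1 and 28.9 CPM in N, 19.9 and 23.3 in E, 66.8 and 63.0 in Y, and 95.5 and 51.1 in EY, a log2 difference of 1.49 ± 0.22 (adjusted p = 0.00834). Cd74, the invariant chain, was at 32672 and 25543 CPM in N, 19248 and 23374 in E, 22386 and 27271 in Y, and 13465 and 16604 in EY (log2 difference -0.37 ± 0.16, adjusted p = 0.240) and H2-Ab1 at 13731 and 11036 CPM in N, 9347 and 12626 in E, 12125 and 12969 in Y, and 6653 and 7592 in EY (log2 difference -0.30 ± 0.18, adjusted p = 0.396), both lowest in EY. Cd74 was called lower in EY against N (log2 difference -0.95 ± 0.20, adjusted p = 0.0336). Cd74 missed the threshold without N1, N2, EY1 or EY2 (adjusted p 0.0740 to 0.197). Cd74 also missed it with cells carrying other-lineage UMIs left out. None of 11 complement genes outside the rule was called by edgeR, with 1 at an unadjusted p under 0.05 and none by DESeq2, and Cfb, factor B, was at 195 to 555 CPM without the YAP transgene and 309 to 508 with it (log2 difference 0.46 ± 0.24, adjusted p = 0.329). Pecam1 rose at 6.37 to 18.1 CPM without the YAP transgene and 24.9 to 37.6 with it, a log2 difference of 1.42 ± 0.26 (adjusted p = 0.0178). The call of Cd80 held without any 1 library. F10 missed the threshold without E1, E2, Y1 or EY1 (adjusted p 0.0502 to 0.0734), Itga4 without N1, N2, E1, E2, Y1, EY1 or EY2 (adjusted p 0.0509 to 0.168) and Pecam1 without N2, E2 or EY1 (adjusted p 0.0531 to 0.0631). F10 and Pecam1 also missed it with cells carrying other-lineage UMIs left out, and Itga4 without the cells over 0.1% keratin, with cells carrying other-lineage UMIs left out and with no filter. Pecam1 is among the genes by which the other-lineage cells were left out, so its loss there is no separate test.

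Differences of cell division genes with YAP were mostly negative. Of all genes 1.56% were called lower, and 1767 of 8804 had an unadjusted p under 0.05 in either direction by edgeR. All 20 tested genes of mitosis had a negative difference, with a median of -1.64, 15 had an unadjusted p under 0.05 and only Kif23, a spindle motor, was called, at 7.96 to 24.0 CPM without the YAP transgene and 3.10 to 6.62 with it, a log2 difference of -1.53 ± 0.33 (adjusted p = 0.0300). Of 13 replication genes 12 were negative (median -0.90), 7 had an unadjusted p under 0.05, and none was called by edgeR and 3 by DESeq2. Pcna was at 104 and 85.0 CPM in N, 98.7 and 134 in E, 75.1 and 72.2 in Y, and 82.4 and 40.2 in EY (log2 difference -0.60 ± 0.22, adjusted p = 0.163). Mki67 was at 39.8 and 51.2 CPM in N, 108 and 58.7 in E, 45.3 and 46.9 in Y, and 43.8 and 80.5 in EY (log2 difference -0.24 ± 0.25, adjusted p = 0.641). The summed mitosis list was 149.7 and 442 in N, 705 and 267 in E, 162 and 213 in Y, and 130.4 and 258 in EY, in CPM, so N1 lay within the range of the libraries with YAP. Kif23 missed the threshold without N2, E1, E2, Y1, EY1 or EY2 (adjusted p 0.0642 to 0.154), and with Y2 left out 7 mitosis genes were called lower.

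Of 20 tested chemokines only Ccl2, which draws monocytes, was called for the YAP term, and it fell, at 126 and 79.0 CPM in N, 319.6 and 226 in E, 40.2 and 62.1 in Y, and 47.5 and 72.7 in EY, a log2 difference of -1.59 ± 0.31 (adjusted p = 0.0201). Of all genes 4.61% were called in either direction, so the chemokine list lay near that share. Cxcl2, a neutrophil attractant, was at 5966 and 5776 CPM in N, 3966 and 3944 in E, 5797 and 5336 in Y, and 9810.0 and 11486 in EY (log2 difference 0.68 ± 0.28, adjusted p = 0.203), highest in EY. EY against N called Cxcl2 (log2 difference 0.86 ± 0.17, adjusted p = 0.0248) and Ccl3 (log2 difference 1.10 ± 0.26, adjusted p = 0.0415), both higher. In that comparison 3.21% of all genes were called higher. Cxcl2 missed the threshold without N1, N2, EY1 or EY2 (adjusted p 0.0872 to 0.121) and Ccl3 without N1, N2, E1, E2, EY1 or EY2 (adjusted p 0.0571 to 0.210). Cxcl2 also missed it with cells carrying other-lineage UMIs left out, and Ccl3 at a mitochondrial limit of 5%, without the cells rich in S100a8 and S100a9, with cells carrying other-lineage UMIs left out and without TMM. Cxcl16 was at 777 and 739 CPM in N, 989 and 898 in E, 1064 and 1037 in Y, and 971 and 986 in EY (log2 difference 0.26 ± 0.14, adjusted p = 0.326). Ccl2 missed the threshold without N1, E1, E2, Y1, EY1 or EY2 (adjusted p 0.0510 to 0.0664).

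The YAP effect was set against that in T cells of the same libraries, which also sit in this epithelium, by a test of the difference with each library as a block. At an adjusted p under 0.05, 131 of 8804 genes (1.49%) differed between the classes. None of the 13 hypoxia or 14 glycolysis genes was among them by edgeR, with 6 and 2 at an unadjusted p under 0.05, and no other tool was run for this test. In T cells 19 of 9444 genes were called for YAP, and all 13 hypoxia and all 14 glycolysis differences were positive, with medians of 0.76 and 0.77 on the log2 scale and 0 and 2 calls. There Hilpda differed by 1.27 ± 0.23 on the log2 scale, Bnip3 by 2.11 ± 0.41 and Slc2a1 by 0.98 ± 0.20. The differences between the classes for these 3 were 1.17 ± 0.38 (adjusted p = 0.163), -0.08 ± 0.51 (adjusted p = 0.985) and 0.63 ± 0.27 (adjusted p = 0.286), so the rise was not shown to be particular to macrophages.

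Among genes that moved more in macrophages, Hs3st3b1 differed between the classes by 4.35 ± 0.47 (adjusted p = 0.00385), Socs2 by 2.996 ± 0.43 (adjusted p = 0.00893) and AA467197 by 1.94 ± 0.31 (adjusted p = 0.0120). Among those that fell more in macrophages, Ighm differed by -3.54 ± 0.52 (adjusted p = 0.00951), Hpgds by -2.55 ± 0.43 (adjusted p = 0.0146), Cd72 by -2.46 ± 0.51 (adjusted p = 0.0351) and Ramp1 by -2.21 ± 0.33 (adjusted p = 0.00951). Macrophage genes that T cells should lack also appeared here. Ms4a7 differed by -3.33 ± 0.60 (adjusted p = 0.0243), but its T cell levels were 0 to 3.60 CPM, and those of Trem2 were 0 to 2.81 and of Msr1 0 to 20.8. T cells should lack these genes, and the part of free RNA in those values was not tested. Leaving out 1 library moved the count of 131 to 38 (N2), 60 (E1), 20 (E2), 52 (Y1), 449 (Y2) and 34 (EY1).

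In single macrophages thinned to 3000 UMIs, the rises appeared as larger shares of cells with a UMI. The percentage of macrophages with Hilpda was 13.7 and 15.2 in N, 13.5 and 25.4 in E, 60.8 and 38.4 in Y, and 61.4 and 57.9 in EY, against 13.4 to 35.1 percent of T cells. Unthinned, the macrophage shares were 30.1 and 36.6 in N, 20 and 38.4 in E, 80.5 and 63.6 in Y, and 82.0 and 64.1 in EY. For Arg1 the percentage was 1.37 and 3.03 in N, 1.504 and 2.82 in E, 31.8 and 4.10 in Y, and 22.7 and 22.6 in EY, beside 0 to 1.41 percent of T cells. Arg1 was therefore found in a minority of macrophages in each library, and in Y2 at a share close to that in N and E. For Inhba it was 2.74 and 1.52 in N, 3.01 and 4.23 in E, 39.7 and 3.73 in Y, and 60.6 and 28.6 in EY, and 0 to 2.58 percent of T cells. For Ms4a7, which fell, it was 52.1 and 70.5 in N, 75.9 and 59.2 in E, 47.9 and 55.6 in Y, and 31.1 and 39.1 in EY. For Cx3cr1 it was 19.2 and 23.5 in N, 17.3 and 11.3 in E, 1.90 and 5.597 in Y, and 3.03 and 1.504 in EY. Cd207 was found at 37.0 and 13.6 in N, 13.5 and 2.82 in E, 1.02 and 0.746 in Y, and 0 and 1.504 in EY. At most 12 macrophages of a library (EY2) were too shallow to thin. Of T cells 103 in N1, 42 in E1, 36 in Y1, 46 in Y2, 35 in EY2 and at most 7 in any other library were left out for this, which left 71 to 1559 per library. Median depths of T cells ran from 3074 to 8029 UMIs before thinning.

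Pairs of genes were also read in single cells. In thinned macrophages Hilpda had a UMI in 78.8% of the 217 cells with Arg1 and 52.4% of the 466 without in Y1, in 66.7% of the 30 cells with Arg1 and 59.8% of the 102 without in EY1, and in 76.7% of the 30 cells with Arg1 and 52.4% of the 103 without in EY2. The other libraries held 11 or fewer Arg1 cells. Mrc1 was found in 25.8% of the 360 cells with Mmp12 and 29.7% of the 323 without in Y1. In Y2 it was found in 33.5% of the 176 cells with Mmp12 and 39.1% of the 92 without. In EY1 it was found in 24.4% of the 41 cells with Mmp12 and 18.7% of the 91 without. In EY2 it was found in 28.3% of the 53 cells with Mmp12 and 30% of the 80 without. The libraries of N and E held 24 or fewer Mmp12 cells each. For Cd207, Mrc1 was found in 5.56% of the 18 cells with Cd207 and 25.4% of the 114 without in N2. In N1 it was found in 0% of the 27 cells with Cd207 and 19.6% of the 46 without. In E1 it was found in 5.56% of the 18 cells with Cd207 and 13.9% of the 115 without. The remaining libraries held 7 or fewer Cd207 cells each. These shares compare cells of 1 library, which share its depth and free RNA, and are given without a test.

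The E libraries differed from N in another set of genes. Interferon-stimulated genes encode proteins that block viral replication, and type I interferon induces them through promoter letters of the form GAAA, any 2 bases and GAAA, the core of the interferon-stimulated response element. Comparing E with N, 16 of 8804 genes (0.182%) were called, all higher, and 8 of them were among the 19 tested interferon genes, whose median difference was 1.97 against 0.00 over all genes. All 19 differences were positive and 18 did not overlap, where 38% of all genes did not overlap between 2 libraries and 2. Promoters of 4 of the 8 are printed as above (250 bases, GRCm38), with every match on either strand in capitals (TTTC, any 2 bases and TTTC where it is on the other strand): Isg15, a ubiquitin-like modifier (chr4:156200819-156201068, minus strand), Rsad2, viperin (chr12:26456453-26456702, minus strand), and Ifit1 (chr19:34640639-34640888, plus strand) and Ifit3 (chr19:34583279-34583528, plus strand), which bind viral RNA.
Isg15: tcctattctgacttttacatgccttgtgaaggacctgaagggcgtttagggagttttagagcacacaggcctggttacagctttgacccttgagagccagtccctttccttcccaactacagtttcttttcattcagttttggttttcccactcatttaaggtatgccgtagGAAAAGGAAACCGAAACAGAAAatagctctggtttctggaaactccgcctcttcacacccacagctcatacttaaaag
Rsad2: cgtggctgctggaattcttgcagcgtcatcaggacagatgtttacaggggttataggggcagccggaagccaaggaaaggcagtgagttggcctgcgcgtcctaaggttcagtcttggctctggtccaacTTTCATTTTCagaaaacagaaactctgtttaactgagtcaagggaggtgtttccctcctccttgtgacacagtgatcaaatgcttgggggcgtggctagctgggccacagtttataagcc
Ifit1: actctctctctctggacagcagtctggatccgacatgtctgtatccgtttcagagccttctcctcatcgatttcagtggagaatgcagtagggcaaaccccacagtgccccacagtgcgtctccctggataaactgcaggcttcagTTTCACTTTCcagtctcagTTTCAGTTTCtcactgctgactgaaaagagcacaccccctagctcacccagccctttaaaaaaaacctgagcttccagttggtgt
Ifit3: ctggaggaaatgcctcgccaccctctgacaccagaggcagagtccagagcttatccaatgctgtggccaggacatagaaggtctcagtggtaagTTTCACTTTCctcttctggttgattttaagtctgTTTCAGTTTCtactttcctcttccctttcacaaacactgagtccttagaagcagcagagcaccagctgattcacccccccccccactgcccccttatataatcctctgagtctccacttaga

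Isg15 held 3 overlapping matches between 78 and 66 bases before the start, Rsad2 held 1 at 120 bases, and Ifit1 (104 and 85 bases) and Ifit3 (156 and 122 bases) held 2 each. A match was found for 5 of 7 called interferon genes with a listed promoter and for 10 of 15 of the whole list, against 3.04% of all promoters. The windows of Irf7 and Ifit2, both called, held none.

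The 8 genes were Isg15, Ifit1, Ifit2, Ifit3, Ifi205, Rsad2, Irf7 and Usp18, picked out after their values were seen. Isg15 was at 258 and 165 CPM in N, 1230.4 and 1401.4 in E, 585 and 442 in Y, and 849.9 and 628 in EY, a log2 difference of E from N of 2.65 ± 0.28 (adjusted p = 0.00814). Rsad2 was at 38.2 and 30.5 CPM in N, 291 and 264 in E, 117 and 77.2 in Y, and 192 and 108 in EY, a log2 difference of 3.04 ± 0.34 (adjusted p = 0.00814). Ifit2 was at 38.2 and 23.4 CPM in N, 204 and 250.01 in E, 59.3 and 78.1 in Y, and 87.6 and 78.9 in EY, a log2 difference of 2.96 ± 0.29 (adjusted p = 0.00814). In all 3 the E libraries were the highest of the 8, and Y and EY lay between N and E. Irf7, the factor that amplifies interferon production, was at 98.7 and 154 CPM in N, 568 and 488 in E, 253 and 266 in Y, and 156 and 195 in EY, a log2 difference of 2.04 ± 0.25 (adjusted p = 0.0163). Ifit3 was at 27.1 and 38.7 CPM in N, 200.1 and 166 in E, 34.3 and 56.7 in Y, and 41.7 and 23.2 in EY, a log2 difference of 2.42 ± 0.34 (adjusted p = 0.0354). Usp18, which removes Isg15 from proteins, was at 23.9 and 18.5 CPM in N, 96.9 and 148 in E, 27.5 and 42.9 in Y, and 29.0 and 20.1 in EY, a log2 difference of 2.59 ± 0.34 (adjusted p = 0.0247). In these 3 the EY libraries were close to N, with differences of EY from N of 0.44, 0.01 and 0.33 on the log2 scale, none called. Of the 19 interferon genes, EY against N called 5, all higher (Isg15, Ifit2, Ifi205, Rsad2 and Gbp5), 18 differences were positive and the median was 0.77. Y against N called none by edgeR and 3 by DESeq2, with 7 at an unadjusted p under 0.05, 18 positive and a median of 0.68. The EY count became 1, 0, 5, 5, 8, 8, 0 and 4, in the order N1 to EY2, with 1 library left out, 1 without the cells carrying other-lineage UMIs, and 10 with no filter beyond 1 UMI. T cells carried Isg15 at 84.2 and 81.8 in N, 789 and 522 in E, 124 and 121 in Y, and 146 and 176 in EY, in CPM, so they too were highest in E.

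The interferon calls depended on the libraries. Isg15 missed the threshold without N2 or E2 (adjusted p 0.0549 to 0.123), Rsad2 without N1, N2 or E2 (adjusted p 0.0549 to 0.193) and Ifit2 without N2 or E2 (adjusted p 0.0549 to 0.116). Irf7 missed the threshold without N1, N2, E1 or E2 (adjusted p 0.0679 to 0.133), Ifit3 without N1, N2, E1 or E2 (adjusted p 0.124 to 0.259) and Usp18 without N1, N2 or E2 (adjusted p 0.124 to 0.371). Ifit1 missed the threshold without N1, N2, E1 or E2 (adjusted p 0.107 to 0.371) and Ifi205 without N1, N2, E1, E2, EY1 or EY2 (adjusted p 0.0824 to 0.428). Isg15, Rsad2, Ifit2 and Usp18 also missed it with cells carrying other-lineage UMIs left out, and Ifit1 and Ifi205 at a mitochondrial limit of 5% and with cells carrying other-lineage UMIs left out. The count of 8 became 2, 0, 4, 0, 9, 10, 7 and 7, in the order N1 to EY2, with 1 library left out. Over both backgrounds, the E6-E7 term was positive for 19 of 19 interferon genes with a median of 1.02, but none was called by edgeR and 6 by DESeq2. The chemokine Cxcl9, the most abundant of the list, was at 365 and 221 CPM in N, 601 and 565 in E, 644 and 51.4 in Y, and 1391 and 2431 in EY, a log2 difference of 1.004 ± 0.82 (adjusted p = 0.836) for E against N. The other 8 genes called for E against N were Phf11b, Ms4a4c, Slfn8, Phf11d, Isg20, Ly6c2, Oasl1 and Slfn4. Phf11b missed the threshold without N1, N2, E1, E2, EY1 or EY2 (adjusted p 0.0613 to 0.371), Ms4a4c without N1, N2, E1 or E2 (adjusted p 0.137 to 0.357) and Slfn8 without N1, N2, E1, E2, EY1 or EY2 (adjusted p 0.0669 to 0.310). Phf11d missed the threshold without N1, N2 or E2 (adjusted p 0.0679 to 0.193), Isg20 without N1, N2, E1 or E2 (adjusted p 0.178 to 0.371) and Ly6c2 without N1, N2, E1, E2, EY1 or EY2 (adjusted p 0.0811 to 0.371). Oasl1 missed the threshold without N1, N2 or E2 (adjusted p 0.0549 to 0.193) and Slfn4 without N2 or E2 (adjusted p 0.0549 to 0.0720). Phf11b also missed it at a mitochondrial limit of 5%, without the cells over 0.1% keratin and with cells carrying other-lineage UMIs left out, Ms4a4c, Slfn8 and Isg20 at a mitochondrial limit of 5% and with cells carrying other-lineage UMIs left out, and Ly6c2 and Oasl1 with cells carrying other-lineage UMIs left out. The YAP term called none of the 19 (1 at an unadjusted p under 0.05, and none by DESeq2).

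Across the 4 libraries with E6-E7 and the 4 without, edgeR called 1 gene (0.0114%) and DESeq2 86. An unadjusted p under 0.05 was reached by 1001. That gene was Hal, histidine ammonia-lyase, with 0, 2, 0, 3, 7 and 2 UMIs in N1 to Y2 and 190 and 79 in EY1 and EY2 (100.3 and 122 CPM). Its call held in EY against N and EY against Y without any 1 library, while the E6-E7 call was lost without EY1 or EY2 (adjusted p 0.0608 to 0.0748). Hal was not among the 86 genes that DESeq2 called for E6-E7 (adjusted p 0.0949). The next genes missed the threshold. Higher with E6-E7 were Slc28a2 (log2 difference 2.08 ± 0.30, adjusted p = 0.101), Ifi205 (log2 difference 1.96 ± 0.31, adjusted p = 0.106) and Themis2 (log2 difference 0.96 ± 0.15, adjusted p = 0.106). Lower were Zfhx3 (log2 difference -0.99 ± 0.19, adjusted p = 0.118), Pxdc1 (log2 difference -1.08 ± 0.21, adjusted p = 0.118) and Ccpg1 (log2 difference -0.80 ± 0.16, adjusted p = 0.118). No overlap between the 4 libraries with E6-E7 and the 4 without was a condition for naming these 6, so it adds no evidence. Of all genes 4.29% met that condition.

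EY against N gave 447 calls (5.08%), 283 higher (3.21%) and 164 lower (1.86%). Higher calls made up 63.3%, against 48.0% of 427 calls without TMM. The libraries did not overlap for 49.2% of all genes. Y against N gave 12 calls (0.136%), 9 higher (0.102%) and 3 lower (0.0341%), with no overlap for 42.1% of all genes. EY against Y gave 6 (0.0682%), with no overlap for 42.9%, and EY against E 352 (4%), 209 higher (2.37%) and 143 lower (1.62%), with no overlap for 48.4%. These comparisons share libraries and are not independent of each other. Beside Hal, the largest rises under the rule were Inhba (log2 difference 4.95 ± 0.99, adjusted p = 0.0274), AA467197 (log2 difference 4.70 ± 0.71, adjusted p = 0.0123) and Egln3 (log2 difference 4.48 ± 0.68, adjusted p = 0.0123). AA467197 was at 62.1 and 62.1 CPM in N, 71.5 and 159.6 in E, 519 and 127 in Y, and 2211 and 1017 in EY. The largest falls were Ighm, with 2 and 0 UMIs in EY1 and EY2 against 58 and 128 in N, Ramp1 (log2 difference -5.50 ± 0.67, adjusted p = 0.00993), Gpr34 (log2 difference -4.81 ± 0.91, adjusted p = 0.0231) and Slc36a2, an amino acid transporter, at 46.2 and 61.1 CPM in N, 9.05 and 30.1 in E, 14.2 and 35.9 in Y, and 2.64 and 1.55 in EY (log2 difference -4.52 ± 0.79, adjusted p = 0.0195). The calls of Hal and Ighm held without any 1 library. Inhba missed the threshold without N1, N2 or EY1 (adjusted p 0.122 to 0.155), AA467197 without N1, N2 or EY1 (adjusted p 0.0686 to 0.0877) and Egln3 without N1, N2 or EY1 (adjusted p 0.0579 to 0.103). Ramp1 missed the threshold without EY1 (adjusted p 0.0841), Gpr34 without N1, N2, EY1 or EY2 (adjusted p 0.0579 to 0.200) and Slc36a2 without N1, N2, EY1 or EY2 (adjusted p 0.0579 to 0.168). Inhba, Gpr34 and Slc36a2 also missed it with cells carrying other-lineage UMIs left out. The count of 447 became 25 without N1, 26 without N2, 18 without EY1 and 129 without EY2, and 146 with the other-lineage cells left out.

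The 12 genes called for Y alone against N, named after their values were seen, were Csf2rb, Uck2, Gpr171, Vdr, Nrg1, Cish, Hs3st3b1, Tnfrsf9 and Crct1, higher, and Cd207, Ighm and Tagap, lower. Vdr, the vitamin D receptor, was at 9.56 and 7.09 CPM in N, 10.9 and 15.8 in E, 52.9 and 46.6 in Y, and 37.0 and 29.4 in EY, a log2 difference of 2.66 ± 0.29 (adjusted p = 0.0157). Nrg1, neuregulin, a ligand of ERBB receptors, was at 14.3 and 11.99 CPM in N, 29.9 and 12.05 in E, 130.3 and 74.7 in Y, and 103 and 82.0 in EY, a log2 difference of 3.01 ± 0.44 (adjusted p = 0.0453). Cish, a feedback inhibitor of cytokine signalling induced through STAT5, was at 15.9 and 5.45 CPM in N, 19.9 and 28.6 in E, 114 and 86.0 in Y, and 93.4 and 43.3 in EY, a log2 difference of 3.52 ± 0.50 (adjusted p = 0.0447). In all 3 the 2 EY libraries also lay above N. Tnfrsf9, a costimulatory receptor, had 1 UMI in each N library, 383 and 168 in Y, and 61 and 25 in EY. Crct1, a gene of the epidermal differentiation cluster, had none in N and 175, 78, 34 and 29 in those 4 libraries, beside a pooled level of 176 CPM in keratinocytes and 17.0 in macrophages. The call of Ighm held without any 1 library. Cd207 missed the threshold without N1 or Y1 (adjusted p 0.0504 to 0.0684), Gpr171 without N1 (adjusted p 0.0684) and Vdr without N1 or N2 (adjusted p 0.0684 to 0.183). Tnfrsf9 missed the threshold without N1 or N2 (adjusted p 0.123 to 0.256), Csf2rb without N1, N2 or Y1 (adjusted p 0.0641 to 0.155) and Nrg1 without N1, N2, Y1, EY1 or EY2 (adjusted p 0.0528 to 0.259). Cish missed the threshold without N1, N2, E1, E2 or Y1 (adjusted p 0.0504 to 0.256), Hs3st3b1 without N1, N2, Y1 or EY1 (adjusted p 0.0610 to 0.283) and Crct1 without N1, N2, E1, E2 or Y1 (adjusted p 0.0504 to 0.259). Nrg1 also missed it with cells carrying other-lineage UMIs left out, Cish with no upper limits, and Hs3st3b1 at a mitochondrial limit of 5%, with cells carrying other-lineage UMIs left out and with no upper limits. Uck2 missed the threshold without N1, N2, E1, E2, Y1, EY1 or EY2 (adjusted p 0.0523 to 0.220) and Tagap without N1, N2, E1, E2, Y1, EY1 or EY2 (adjusted p 0.0703 to 0.256). Uck2 also missed it at a mitochondrial limit of 5%, with cells carrying other-lineage UMIs left out and with no upper limits, and Tagap at a mitochondrial limit of 5%, without the cells over 0.1% keratin, with cells carrying other-lineage UMIs left out and with no upper limits. Crct1 also missed it at a mitochondrial limit of 5%, with cells carrying other-lineage UMIs left out, with no upper limits and at 10 CPM.

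The effect of the transgenes together was tested by their interaction, for which edgeR called 2 genes (0.0227%), 1 in each direction (0.0114%), and DESeq2 44. An unadjusted p under 0.05 was reached by 605. Slpi, an inhibitor of neutrophil elastase, was at 209 and 123 CPM in N, 22.6 and 44.4 in E, 64.5 and 50.4 in Y, and 764 and 1284 in EY. The libraries with 1 transgene lay under both N libraries and the EY libraries over them, an interaction of 6.42 ± 0.56 (adjusted p = 0.00614) on the log2 scale, and the call held without any 1 library. Its pooled level was 2384 CPM in neutrophils, 3201 in Saa3 cells and 135 in keratinocytes, against 182 in C1q macrophages, and its source in the EY macrophages was not tested. Phf11d, an interferon-induced gene, was at 25.5 and 24.0 CPM in N, 100.5 and 120.5 in E, 28.6 and 36.5 in Y, and 21.1 and 17.0 in EY, with an interaction of -2.88 ± 0.34 (adjusted p = 0.0420), high in E only. Phf11d missed the threshold without N1, N2, E1, E2, Y2, EY1 or EY2 (adjusted p 0.0672 to 0.212). Phf11d also missed it at 10 C1q UMIs per 10000, at a mitochondrial limit of 5% and without the cells rich in S100a8 and S100a9.

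The p-values of gene differences rest on the spread between libraries, of which each group had 2. For the YAP and E6-E7 terms that spread also holds any interaction of the transgenes. The p-values of shares come from permuted labels, and the test against T cells compares classes within libraries. The study's methods describe separate mice, and no batch was named. Macrophages lost in dissociation, and transcripts below the depth of N1 and EY2, were not measurable here.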

How the data were processed

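Single-cell 3′ libraries of viable sorted tongue epithelial cells were made by the authors with 10x Genomics chemistry and deposited as UMI counts per gene and cell for 32285 genes, filtered to called cells, with Cell Ranger 5.0.0 named in the file headers and build mm10 in the labels. The deposited counts are not normalized. Groups came from the genotype and title labels. The replicate numbers are in accession order. The C1q rule, the gene lists and the naming rule were chosen with earlier results of these data known, so the groups of genes are described and are not independent evidence.

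UMIs of the macrophages were summed per library, genes were filtered with filterByExpr, the rule genes were left out, and 8804 genes were fitted with edgeR 4.0.16 (TMM scaling, glmQLFit and glmQLFTest, Benjamini-Hochberg adjustment over all of them, threshold 0.05) in R 4.3.3. The YAP and E6-E7 terms came from an additive model over 8 libraries, and pairwise and interaction contrasts from a model of 4 group means. The difference from T cells (at least 2 Cd3e UMIs, under 5 of C1q) was fitted over both classes with the library as a block. DESeq2 1.42.0 and the alternatives in the closing section were run beside it, and the scripts were tested on simulated counts. CPM values use each library's summed macrophage UMIs times its TMM factor. Shares were compared by exact permutation over 70 labellings. Cells were thinned with a fixed seed in Python 3.11.15 with scipy 1.17.1, and doublets called with scanpy 1.11.5. Other classes were drawn by transcripts within the same limits (neutrophils with no lower limit on genes), all but keratinocytes with under 5 C1q UMIs: Ly6c2 monocytes (2 or more Ly6c2 UMIs), Saa3 cells (5 or more Saa3 UMIs), neutrophils (50 or more S100a8 and S100a9 UMIs) and keratinocytes (2% or more keratin UMIs).

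Genes were named by rule: the 8 largest rises and 8 largest falls for YAP, and 4 and 4 for E6-E7 and for EY against N, among called genes with a group mean of 20 CPM or more, no overlap between arms and no other class over 5 times higher; where under 3 qualified, the lowest p-values filled the place. Called list members (at most 4 a list, and 2 of the highest level) and 4 markers were added. A test against Ly6c2 monocytes was not run, since 4 libraries held under 20 of them. Clec7a, Mx1 and Ly6a2 were not analysed here, and some genes that the rule names are not reported here.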

Additional observations from a re-analysis of the deposited data

Results flagged for a closer look

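The YAP effect differed between C1q macrophages and T cells of the same libraries for 14 of the genes named, by edgeR's test of the difference with the library as a block. On the log2 scale, macrophages minus T cells, the values were Hs3st3b1 4.35, Socs2 2.996 and AA467197 1.94, which moved further up in macrophages, and Ighm -3.54, Ramp1 -2.21, Cd72 -2.46 and Hpgds -2.55, which moved further down. The other 7 were Msr1 -3.14, Chil3 -4.38, Trem2 -5.37, Ccl2 -3.78, Cxcl16 -2.06, Sirpa -2.16 and Ms4a7 -3.33. T cells held little RNA of several of these 7. Ms4a7 was at 0 to 3.60 CPM in them, Trem2 at 0 to 2.81, Msr1 at 0 to 20.8 and Ccl2 at 0.450 to 25.2, while Chil3 was at 0 and 0.225 in N, 0 and 0.818 in E, 74.0 and 11.9 in Y, and 318 and 90.2 in EY, in CPM. The part of free RNA in those T cell values was not tested. Sirpa, an inhibitory receptor that reads CD47, was at 239 and 210.4 CPM in N, 241 and 230.4 in E, 213 and 217 in Y, and 229.6 and 184 in EY in macrophages, with no YAP call of its own (log2 difference -0.12 ± 0.13, adjusted p = 0.668).

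For 2 genes the log2 effects of E6-E7 and YAP did not add up by edgeR's test of the interaction, which was 6.42 for Slpi and -2.88 for Phf11d on the log2 scale. Slpi stood at 764 and 1284 CPM in EY, beside summed neutrophil markers of 7539 and 7732 CPM there, and the part of neutrophil RNA in it was not tested.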

How the results depend on the processing

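No difference in share passed the threshold under any setting run, though the adjusted share tests could not have passed it. No called gene named in the report changed sign. 1 call of EY against N, not named there, did. At 10 C1q UMIs, calls numbered 19 for Y against N. At 10 C1q UMIs per 10000, calls numbered 1 for interaction and 26 for Y against N. At a mitochondrial limit of 5%, calls numbered 1 for interaction and 10 for E against N. Without Scrublet calls, calls numbered 10 for EY against Y. Without the cells rich in S100a8 and S100a9, calls numbered 1 for interaction. Without the cells over 0.1% keratin, calls numbered 2 for E6-E7 effect, 4 for interaction and 16 for EY against Y. With cells carrying other-lineage UMIs left out, calls numbered 235 for YAP effect, 2 for E6-E7 effect, 9 for interaction, 146 for EY against N, 4 for E against N and 13 for EY against Y. With no upper limits, calls numbered 3 for E6-E7 effect, 4 for interaction, 7 for Y against N and 11 for EY against Y. Without TMM, calls numbered 5 for interaction. With DESeq2, calls numbered 612 for YAP effect, 86 for E6-E7 effect, 44 for interaction, 76 for Y against N, 43 for E against N and 84 for EY against Y. With no filter, calls numbered 1198 for YAP effect, 454 for E6-E7 effect, 234 for interaction, 1138 for EY against N, 481 for Y against N, 215 for E against N, 430 for EY against Y and 1032 for EY against E. The settings on S100a8 and S100a9 and on keratin were chosen after seeing the data. With 1 library left out, call counts ranged as follows: YAP effect 105 (without EY1) to 766 (without Y2), E6-E7 effect 1 (without N1, N2, E1, Y2 or EY2) to 14 (without Y1), interaction 1 (without N1, N2, E1, E2, Y2, EY1 or EY2) to 35 (without Y1), EY against N 18 (without EY1) to 628 (without Y1), Y against N 2 (without N1) to 143 (without Y2), E against N 0 (without N2) to 31 (without Y2), EY against Y 1 (without Y2) to 195 (without Y1), EY against E 13 (without E2) to 502 (without Y2) and YAP effect in C1q macrophages against that in T cells 20 (without E2) to 449 (without Y2). A comparison of 2 groups then has an arm of 1 library, which is assumed to vary like the other groups. In percentage points, the share of immune cells, YAP effect 1.12 (without Y2) to 6.16 (without E1), share of immune cells, E6-E7 effect -5.42 (without E1) to -0.375 (without Y2), share of monocyte-macrophage classes, YAP effect -30.9 (without Y2) to -7.75 (without EY1) and share of monocyte-macrophage classes, E6-E7 effect -38.7 (without E1) to -20.3 (without EY1). Among genes without a call, the YAP difference of Isg15 ran from -0.18 (without N2) to 0.60 (without EY2), with -0.03 without Y1 and -0.12 with the other-lineage cells left out. That of Mki67 ran from -0.35 (without EY2) to 0.000210 (without E1), and that of Epcam changed sign to 0.70 with the other-lineage cells left out. That setting leaves out cells by Cd207 among other genes. The cause of these changes was not tested beyond the fewer samples, cells or genes that each setting leaves. No paired analysis was possible because the replicate numbers are in accession order and pair nothing across groups. Depth limits N1 and EY2, with 624478 and 698135 macrophage UMIs.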

Other observations

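Values that belong to no list came from EY against Y, where 6 genes were called and all were higher. They were chosen after their values were seen. Fpr1, a receptor for bacterial formyl peptides, was at 28.7 and 12.5 CPM in N, 17.2 and 12.8 in E, 10.1 and 9.45 in Y, and 58.6 and 54.2 in EY, a log2 difference of EY from Y of 2.52 ± 0.32 (adjusted p = 0.0281). Hp, haptoglobin, was at 55.7 and 108 CPM in N, 88.7 and 124 in E, 86.0 and 98.3 in Y, and 434 and 611 in EY, a log2 difference of 2.50 ± 0.32 (adjusted p = 0.0281). Vcan, a matrix proteoglycan of monocytes, was at 30.3 and 28.9 CPM in N, 11.8 and 7.53 in E, 18.8 and 11.97 in Y, and 97.7 and 58.8 in EY, a log2 difference of 2.35 ± 0.30 (adjusted p = 0.0281), and Fbxl5, part of a ubiquitin ligase for an iron regulatory protein, was at 68.5 and 68.7 CPM in N, 42.6 and 66.3 in E, 67.4 and 42.5 in Y, and 247 and 268 in EY, a log2 difference of 2.21 ± 0.27 (adjusted p = 0.0281). The others were Slpi and Hal. In pooled neutrophils Hp stood at 1589 CPM and Fpr1 at 273, against 146 and 17.9 in C1q macrophages, and neutrophil markers were highest in EY. The part of neutrophil RNA in these calls was not tested. The call of Hal held without any 1 library. Slpi missed the threshold without Y2 (adjusted p 0.0567), Fpr1 without Y2, EY1 or EY2 (adjusted p 0.0857 to 0.206) and Hp without Y2, EY1 or EY2 (adjusted p 0.0725 to 0.122). Vcan missed the threshold without N1, N2, Y2 or EY1 (adjusted p 0.0600 to 0.211) and Fbxl5 without N1, N2, Y2, EY1 or EY2 (adjusted p 0.0600 to 0.126). Fpr1 also missed it with cells carrying other-lineage UMIs left out, Hp at 10 C1q UMIs and without the cells rich in S100a8 and S100a9, and Vcan without the cells rich in S100a8 and S100a9.

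Nos2, the inducible nitric oxide synthase, was found in single cells mainly of EY. With cells thinned to 3000 UMIs, the percentage of macrophages with a Nos2 UMI was 6.85 and 0.758 in N, 4.51 and 5.63 in E, 11.4 and 2.24 in Y, and 44.7 and 29.3 in EY, and unthinned 8.22 and 2.24 in N, 7.14 and 8.22 in E, 20.3 and 5.51 in Y, and 60.2 and 33.8 in EY. In T cells it was 0 to 2.58 thinned. Its level was 38.2 and 26.2 CPM in N, 13.6 and 24.9 in E, 70.8 and 18.3 in Y, and 654 and 328 in EY, with no call for the YAP term (log2 difference 2.64 ± 0.85, adjusted p = 0.110) and a call in EY against N (log2 difference 3.998 ± 0.63, adjusted p = 0.0140). Nos2 missed the threshold without N1, N2 or EY1 (adjusted p 0.0601 to 0.103). Nos2 also missed it with cells carrying other-lineage UMIs left out.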
